A study of Mus musculus with 11 samples.

Results

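The epidermal barrier lipid synthesis genes are 34 genes for ceramide, acylceramide and fatty acid elongation enzymes, with the carriers, cofactors and lipases that work beside them. They were chosen by name, and all 34 are among the 24421 genes listed in the RNA-seq count tables. By role, 9 make the ceramide backbone, 9 supply and elongate fatty acids, 6 build acylceramide and the lipid envelope, 5 export lipid or act on glucosylceramide and sphingomyelin, and 5 are ceramidases, other breakdown enzymes and lipases. The study sorted keratinocytes from back skin of mice aged 8 weeks, either from the 1 mm margin of a 4 mm full-thickness punch wound on day 3 after wounding or from distal unwounded skin. All mice carried Krt14-Cre on a C57BL/6J background: WT animals had Krt14-Cre alone, and *Grhl3*-cKO littermates had Krt14-Cre with both *Grhl3* alleles floxed. RNA-seq libraries numbered 2 for WT unwounded, 2 for WT wounded, 1 for unwounded keratinocytes labelled *Grhl3*-cKO and 2 for wounded keratinocytes labelled *Grhl3*-cKO, and ATAC-seq gave 1 region list for each of these 4 conditions. Libraries are named here by their labels, with "cKO-labelled" for those labelled *Grhl3*-cKO.

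Krt14-Cre is active in basal keratinocytes and is inherited by the cells above them, so the deletion is confined to keratin-14 lineages. Cells were sorted for intermediate and high levels of the integrin CD49F, a gate meant to hold basal and suprabasal keratinocytes, and against CD45, CD31 and TER119. For ATAC-seq, wounds of a pair of mice were pooled in each condition; for RNA-seq it is not stated whether libraries came from separate animals or from pools. Sphingolipid synthesis starts when serine and a fatty acyl-CoA are joined, and the product is reduced, acylated and desaturated to ceramide. In the upper epidermis, ceramides with ultra-long acyl chains receive linoleate at their far end, are glucosylated, loaded into lamellar granules and secreted, and the linoleate is oxidised so that the lipid can be bound to the cornified envelope. Loss of enzymes of this route causes ichthyosis and water loss through the skin.

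Counts on genes totalled 15488699 and 16807451 in WT unwounded, 16653948 and 15418631 in WT wounded, 13497283 in cKO-labelled unwounded and 15223569 and 14279568 in cKO-labelled wounded libraries. Values below are CPM, counts scaled to each library's total on genes. *Grhl3* itself had 1893 and 1398 counts in WT unwounded, 1831 and 1388 in WT wounded, 1029 in cKO-labelled unwounded and 1765 and 1491 in cKO-labelled wounded keratinocytes. It was not lower in the cKO-labelled wounded than in the WT wounded libraries (log2 fold change 0.17, unadjusted p = 0.436), and a count per gene cannot show whether its floxed exons are missing, so genotypes follow the labels. The cKO-labelled unwounded library stands apart: the X-inactivation transcript *Xist* had 14854 counts there and 3 to 32 elsewhere, and the Y-linked genes *Ddx3y*, *Eif2s3y*, *Kdm5d* and *Uty* had 0 there, against at least 320 counts each in every other library. Statements on the wound response under the cKO label rest on this library and cannot be given without it. Basal keratinocyte markers were abundant in every library, their 6 genes summing to 30417 to 44376 CPM, with *Krt14* the most abundant. Granular markers, which belong to the layer that makes most barrier lipid, were low: the 6 listed genes summed to 93.1 to 165 CPM, *Ivl* was the most abundant, *Lor* had at most 60 counts in a library, and *Flg* is not in the tables.

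All 34 members passed edgeR's expression filter, as did 14045 of all genes. Summed over the set, the members took 2399 and 2671 CPM in WT unwounded, 2437 and 2117 in WT wounded, 2395 in cKO-labelled unwounded and 2154 and 2409.8 in cKO-labelled wounded keratinocytes. The totals lay between 2117 and 2671 CPM, and the wounded and unwounded groups overlapped. In WT this overlap depended on *Scd1*. Summed without it, the unwounded WT libraries (1748 and 1772 CPM) both lay above the wounded WT libraries (1630 and 1460 CPM). Under the cKO label the sum without *Scd1* still overlapped, at 1566 CPM for the unwounded library and 1469 and 1625 CPM for the wounded ones. Per kilobase of exon, which allows levels to be compared between genes, the highest mean was 155 CPM for *Scd1*, the desaturase that makes oleate, followed by 35.9 for *Degs1*, the main dihydroceramide desaturase, and 32.3 for *Elovl6*, which elongates palmitate. *Scd1* had 651 and 899 CPM in WT unwounded, 808 and 657 in WT wounded, 829 in cKO-labelled unwounded and 685 and 785 in cKO-labelled wounded keratinocytes. No group stood apart for *Scd1*, whose highest library was 1.38 times its lowest. *Degs1* had 92.4 and 128 CPM in WT unwounded, 78.1 and 89.4 in WT wounded, 85.6 in cKO-labelled unwounded and 103 and 74.4 in cKO-labelled wounded keratinocytes. WT unwounded replicate 2 was the highest library for *Degs1*, and both WT wounded libraries were below both WT unwounded ones. *Elovl6* had 241 and 265 CPM in WT unwounded, 247 and 162 in WT wounded, 198 in cKO-labelled unwounded and 114 and 229 in cKO-labelled wounded keratinocytes. The lowest value of *Elovl6* was in cKO-labelled wounded replicate 1, and the groups overlapped.

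The lowest means per kilobase were 0.445 CPM for *Aloxe3*, 0.412 for *Sdr9c7* and 0.347 for *Fads2*. *Aloxe3*, a lipoxygenase of the lipid envelope, had 49 and 3 counts in WT unwounded, 52 and 3 in WT wounded, 90 in cKO-labelled unwounded and 61 and 37 in cKO-labelled wounded keratinocytes. Within both WT groups 1 library of *Aloxe3* was near 0 and the other was not, so replicates differed more than groups did. *Fads2*, a desaturase of polyunsaturated fatty acids, had 16 and 8 counts in WT unwounded, 63 and 13 in WT wounded, 12 in cKO-labelled unwounded and 15 and 0 in cKO-labelled wounded keratinocytes. A count of 0 in cKO-labelled wounded replicate 2 allows up to 0.210 CPM, and the 63 counts of WT wounded replicate 1 stood above all the others. Libraries of the remaining members ranged from 0.649 CPM for the lowest library of the lipase gene *Lipk* to 302 CPM for the highest of the lipid transporter gene *Abca12*. Over all 34, the median log2 difference between replicates was 0.485 for WT unwounded cells (all genes tested 0.309), 0.297 for WT wounded cells (0.341) and 0.302 for cKO-labelled wounded cells (0.325). The limit of 0.210 CPM given above for a count of 0 covers counting error only, not the difference between replicates.

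The WT comparison asks which of these genes differ at the wound margin. Compared with WT unwounded keratinocytes, WT wounded ones gave 13 members a higher and 21 a lower estimate, with a median log2 fold change of -0.11 against 0.00 for all genes tested. Only 13 of the 34 kept their direction when each library was left out in turn. *Abca12*, *Pnpla1* and *Alox12b* had an unadjusted p under 0.05, all 3 lower in wounded cells; 1.67% of all genes tested were called lower by this rule, 4.84% in either direction, and 0 members were called higher against 3.18%. With edgeR quasi-likelihood p-values adjusted by Benjamini-Hochberg 0 members were called, against 0.0285% of all genes, and the smallest adjusted p of a member was 0.843. DESeq2 called 0 members adjusted, against 24 of 14045 genes, and 3 unadjusted, against 5.23% of all genes tested. Both wounded libraries lay below both unwounded ones for 9 members (18.3% of all genes tested) and above both for 0 (15.2%). These 9 were *Sptlc1*, *Sptlc3*, *Degs1*, *Elovl4*, *Pnpla1*, *Alox12b*, *Sdr9c7*, *Abca12* and *Sgpl1*. The count of 3 was 7 without WT unwounded replicate 1 (all genes tested 5.04%) and 1, *Smpd1*, without WT unwounded replicate 2 (4.47%). Exact relabelling of 2 libraries and 2 others yields no p below 0.333, so each p rests on the spread that edgeR shares between genes, and it measures the spread between these libraries.

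The comparison of labels at the wound margin asks what differs when *Grhl3* is targeted. In cKO-labelled wounded against WT wounded keratinocytes, 23 members had a higher and 11 a lower estimate (median 0.12, against -0.01 for all genes tested), and 14 of the 34 kept their direction when each library was left out in turn. *Elovl4* and *Pnpla1* were higher and *Sgms2* lower at an unadjusted p under 0.05, where 1.96% of all genes tested were higher, 2.08% lower and 4.04% called in either direction. Benjamini-Hochberg adjustment of the edgeR quasi-likelihood p-values called 0 members and 0% of all genes tested. DESeq2 called 0 members adjusted, against 3 of 14045 genes, and 2 unadjusted, against 3.96% of all genes tested. Both cKO-labelled libraries lay above both WT wounded ones for 6 members, *Elovl4*, *Elovl7*, *Dgat2*, *Pnpla1*, *Alox12b* and *Sdr9c7* (13.8% of all genes tested), and below both for 5, *Kdsr*, *Degs2*, *Abca12*, *Ugcg* and *Sgpl1* (17.2%). The count of 3 was 1, *Aloxe3*, without WT wounded replicate 1 (all genes tested 4.03%) and 5 without WT wounded replicate 2 (6.16%). This comparison and the WT one share the WT wounded libraries, so a low value there lowers the one and raises the other.

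Within the cKO label, 10 members were above the unwounded library in both wounded libraries (35% of all genes tested), 9 were below it in both (33.8%) and 15 lay on opposite sides. The rule that both wounded libraries lie at least 2-fold to 1 side of the unwounded one was met by 1 member, *Sdr9c7*, and by 9.55% of all genes tested. Without cKO-labelled wounded replicate 1 the rule is met by 4 members, with *Degs2* and *Sdr9c7* higher and *Fads2* and *Aloxe3* lower, and by 18.5% of all genes tested. No p-value is given for this comparison, since the unwounded group is 1 library. The test of whether the wound response differs between labels, which assumes that this library varies like the others, gave 1 member with an unadjusted p under 0.05, *Pnpla1*, against 6.77% of all genes tested. Since this library is alone in its group and also differs in sex-linked genes, an effect of the label, of sex or of the library cannot be told apart in that test. After Benjamini-Hochberg adjustment of these edgeR quasi-likelihood p-values 0 members passed, against 0.185% of all genes. For the same difference DESeq2 called 2 members unadjusted, *Pnpla1* and *Abca12*, against 6.59% of all genes tested. It called 0 members adjusted, against 85 of 14045 genes. The count of 1 was 3 without WT unwounded replicate 1 (all genes tested 7.81%), 2 without cKO-labelled wounded replicate 1 (5.78%) and 3 without cKO-labelled wounded replicate 2 (6.72%).

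**Figure D1:**
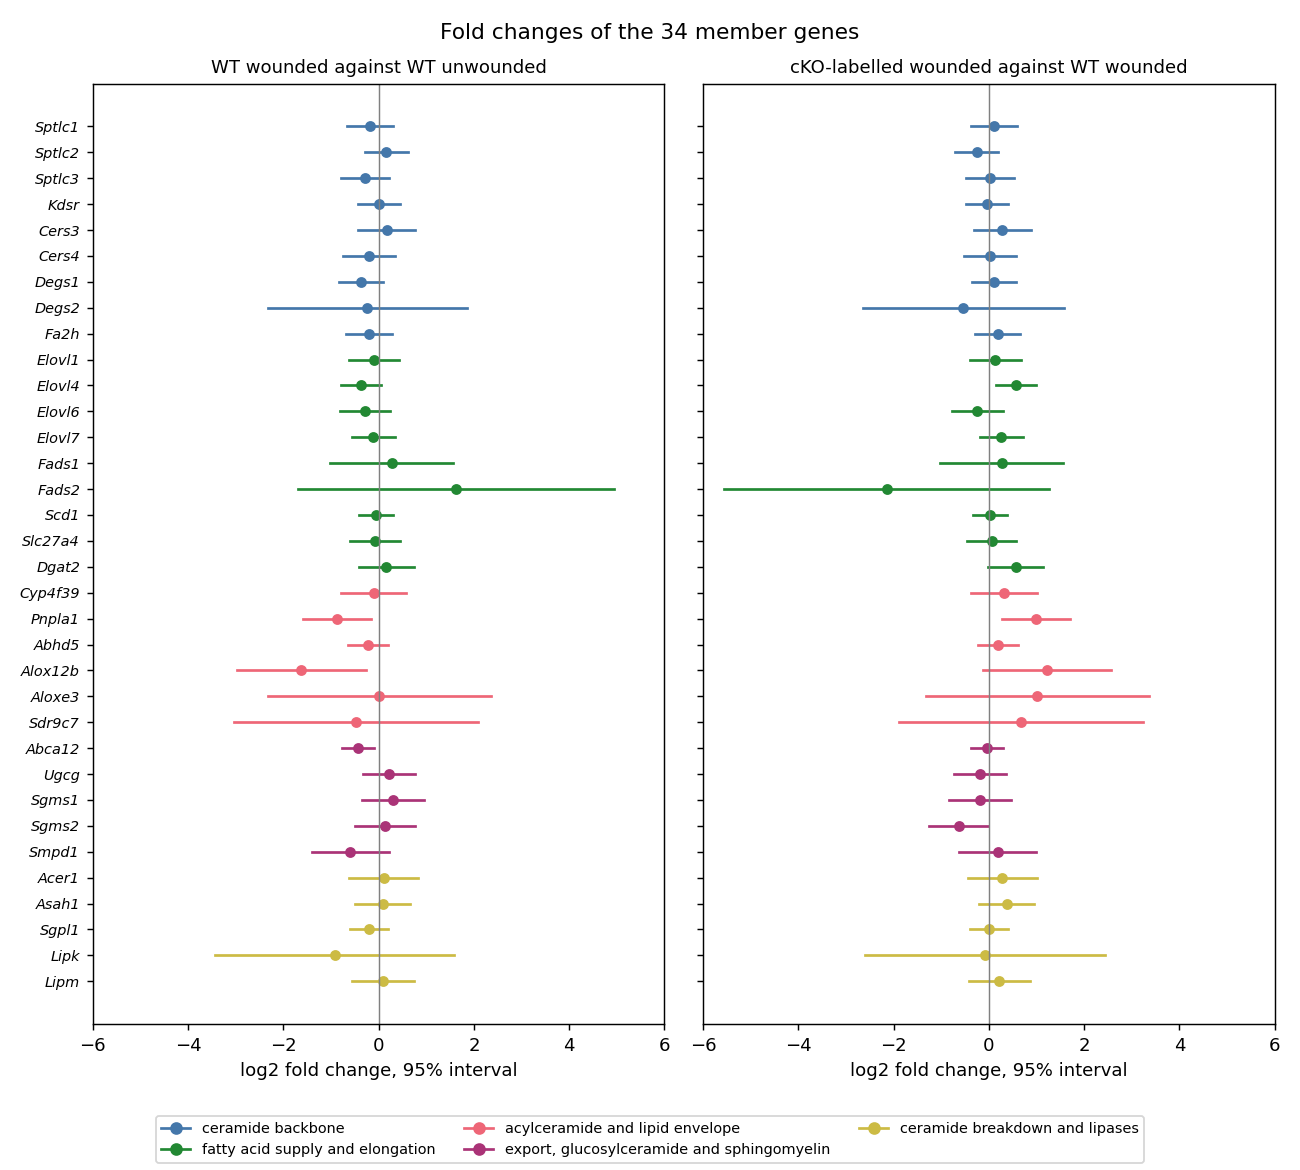
Log2 fold changes of the 34 members with 95% intervals from edgeR's quasi-likelihood fit, coloured by role, for WT wounded against WT unwounded (left) and cKO-labelled wounded against WT wounded keratinocytes (right). Intervals that leave out 0 belong to *Abca12*, *Pnpla1* and *Alox12b* on the left and to *Elovl4*, *Pnpla1* and *Sgms2* on the right, before any adjustment.

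The ceramide backbone is started by serine palmitoyltransferase, whose subunits are encoded by *Sptlc1*, *Sptlc2* and *Sptlc3*, and continued by the reductase *Kdsr*, the ceramide synthases *Cers3* and *Cers4*, the desaturases *Degs1* and *Degs2* and the fatty acid hydroxylase *Fa2h*. Of the 9, 3 had a higher and 6 a lower estimate in WT wounded than in WT unwounded keratinocytes (median log2 fold change -0.20). In cKO-labelled against WT wounded ones 6 had a higher and 3 a lower estimate (median 0.03). None of the 9 had an unadjusted p under 0.05 in either comparison, with a smallest of 0.103, that of *Degs1* in WT. *Cers3*, which takes ultra-long acyl chains, ranged from 26.5 to 46.4 CPM, with its highest value in cKO-labelled wounded replicate 1. *Cers4*, a synthase for shorter chains, ranged from 56.9 to 115 CPM, and its highest library was WT unwounded replicate 2. *Degs2*, which also makes phytoceramide, had only 9 to 53 counts, the fewest in the cKO-labelled unwounded library. *Sptlc1* varied least of all members, its highest library being 1.29 times its lowest. *Sptlc2* ranged from 51.05 to 84.2 CPM, *Sptlc3* from 28.3 to 51.5, *Kdsr* from 39.99 to 54.2 and *Fa2h* from 42.2 to 64.1. For the cKO label, 2 of the 9 were above the cKO-labelled unwounded library in both cKO-labelled wounded libraries (all genes tested 35%), 2 were below it in both (33.8%) and 5 lay on opposite sides.

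Fatty acids are lengthened by the elongases *Elovl1*, *Elovl4*, *Elovl6* and *Elovl7*, desaturated by *Fads1*, *Fads2* and *Scd1*, taken up and activated by *Slc27a4* and stored as triglyceride by *Dgat2*. Wounding in WT gave 3 of these 9 a higher and 6 a lower estimate, with a median log2 fold change of -0.07. Between the wounded groups 7 had a higher and 2 a lower estimate in cKO-labelled cells, with a median of 0.14. *Elovl4*, the elongase for the ultra-long chains of acylceramide, had 69.5 and 92.2 CPM in WT unwounded, 57.2 and 65.7 in WT wounded, 88.3 in cKO-labelled unwounded and 83.4 and 96.6 in cKO-labelled wounded keratinocytes. Both WT wounded libraries were lower than all 5 others, and the cKO-labelled wounded libraries lay above them without overlap. The log2 fold change of *Elovl4* in cKO-labelled against WT wounded cells was 0.57 (edgeR quasi-likelihood, standard error 0.19, unadjusted p = 0.00977, Benjamini-Hochberg adjusted p = 1). It was 0.47 (unadjusted p = 0.0674) without WT wounded replicate 1 and 0.50 (unadjusted p = 0.0555) without cKO-labelled wounded replicate 2. In WT wounded against unwounded cells the estimate for *Elovl4* was -0.37 (unadjusted p = 0.0746), and it was -0.16 (unadjusted p = 0.508) without WT unwounded replicate 2 and -0.55 (unadjusted p = 0.0340) without WT unwounded replicate 1. *Dgat2*, whose groups also did not overlap, was at 23.4 and 26.3 CPM in cKO-labelled wounded and 18.7 and 15.3 CPM in WT wounded cells. Its unadjusted p was 0.0530, and the cKO-labelled unwounded library, at 26.1 CPM, was as high as the wounded ones. *Elovl1* ranged from 32.7 to 52.7 CPM, *Elovl7* from 40.3 to 56.3, *Slc27a4* from 34.8 to 59.1 and *Fads1* from 2.33 to 6.06. For the cKO label, 1 of the 9 were above the cKO-labelled unwounded library in both cKO-labelled wounded libraries (all genes tested 35%), 1 were below it in both (33.8%) and 7 lay on opposite sides.

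Acylceramide is made when *Cyp4f39* hydroxylates the far end of the ultra-long chain and *Pnpla1*, helped by its cofactor *Abhd5*, transfers linoleate onto it; *Alox12b*, *Aloxe3* and *Sdr9c7* then oxidise the linoleate in turn. For 5 of these 6 the estimate was lower in WT wounded than in WT unwounded cells and for 1 it was higher (median log2 fold change -0.35). All 6 had a higher estimate in cKO-labelled than in WT wounded cells (median 0.83), as had 48.5% of all genes tested. Both cKO-labelled libraries lay above both WT wounded ones for 3 of the 6 (13.8% of all genes tested). Of the 6, 1, *Pnpla1*, was higher at an unadjusted p under 0.05 (1.96% of all genes tested). *Pnpla1* had 12.3 and 14.04 CPM in WT unwounded, 6.54 and 7.52 in WT wounded, 8.08 in cKO-labelled unwounded and 12.2 and 15.5 in cKO-labelled wounded keratinocytes. The WT wounded libraries and the cKO-labelled unwounded library were low and the other 4 were high, without overlap. In WT the log2 fold change of *Pnpla1* with wounding was -0.88 (edgeR quasi-likelihood, standard error 0.34, unadjusted p = 0.0200, Benjamini-Hochberg adjusted p = 0.895), and in cKO-labelled against WT wounded cells it was 0.99 (edgeR quasi-likelihood, standard error 0.34, unadjusted p = 0.0102, Benjamini-Hochberg adjusted p = 1). The WT estimate was -0.78 (unadjusted p = 0.0888) without WT wounded replicate 1 and -0.79 (unadjusted p = 0.0805) without WT unwounded replicate 2. The estimate between labels was 0.89 (unadjusted p = 0.0552) without WT wounded replicate 1 and 0.85 (unadjusted p = 0.0642) without cKO-labelled wounded replicate 2. The difference between the labels in the wound response of *Pnpla1* was 1.64 in log2 units. It leans on the 1 cKO-labelled unwounded library, so only the estimate is given here. The unadjusted call given above for this difference has the same limit. WT wounded cells had 7.03 ± 0.692 CPM (SD, n = 2) of *Pnpla1*, WT unwounded cells 13.2 ± 1.25 and cKO-labelled wounded cells 13.8 ± 2.35.

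*Alox12b*, the lipoxygenase that acts before *Aloxe3*, had 3.62 and 7.97 CPM in WT unwounded, 1.74 and 1.95 in WT wounded, 3.33 in cKO-labelled unwounded and 5.06 and 3.36 in cKO-labelled wounded keratinocytes. The WT wounded libraries were the 2 lowest, and WT unwounded replicate 2 was the highest by a wide margin. The log2 fold change in WT was -1.62 (edgeR quasi-likelihood, standard error 0.64, unadjusted p = 0.0215, Benjamini-Hochberg adjusted p = 0.895), and without WT unwounded replicate 2 it was -0.96 (unadjusted p = 0.254). Between the wounded groups it was 1.22 (unadjusted p = 0.0728), on 29 and 30 counts in WT and 77 and 48 in cKO-labelled libraries. *Sdr9c7*, the dehydrogenase that follows the lipoxygenases, had 26 and 21 counts in WT unwounded, 15 and 18 in WT wounded, 7 in cKO-labelled unwounded and 27 and 21 in cKO-labelled wounded keratinocytes. The cKO-labelled unwounded library was the lowest, and both cKO-labelled wounded libraries lay above both WT wounded ones. Against the unwounded library the cKO-labelled wounded libraries differed by 1.55 and 1.30 log2 units, a 2-fold difference that rests on 7 counts. Its unadjusted p was 0.699 in WT and 0.586 between the wounded groups. *Cyp4f39* ranged from 14.2 to 24.8 CPM and *Abhd5* from 61.9 to 93.8 CPM, with WT unwounded replicate 2 the highest library of both. For the cKO label, 5 of the 6 were above the cKO-labelled unwounded library in both cKO-labelled wounded libraries (all genes tested 35%), 1 were below it in both (33.8%) and 0 lay on opposite sides. The exception was *Aloxe3*, whose cKO-labelled unwounded library was its highest.

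**Figure D2:**
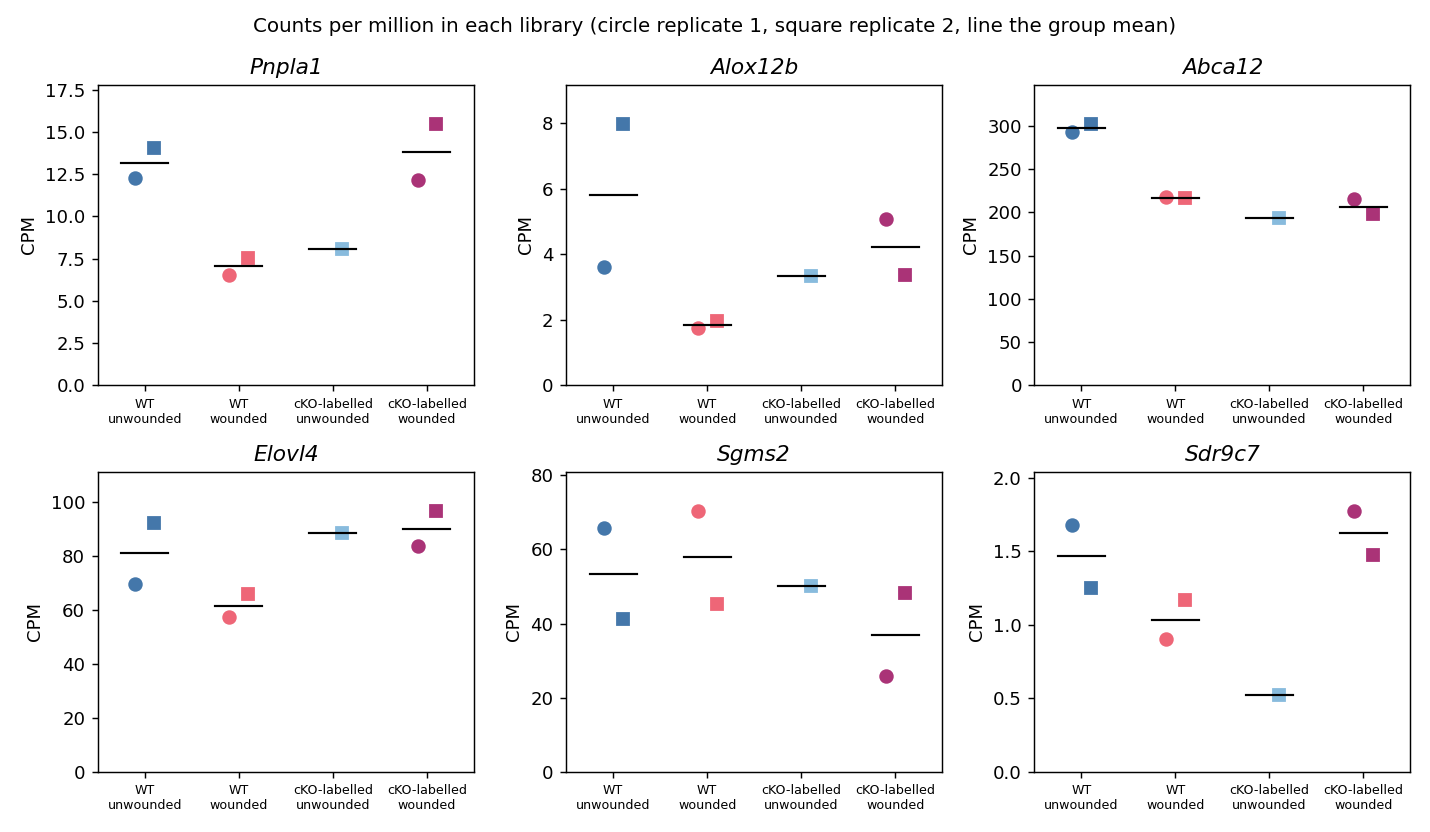
CPM in each library of the 6 members with an unadjusted p under 0.05 in a test or a 2-fold difference within the cKO label, with circles for replicate 1, squares for replicate 2 and a line at the group mean. *Pnpla1* and *Alox12b* were lowest in WT wounded cells, and *Abca12* was highest in WT unwounded cells.

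Export depends on *Abca12*, which loads glucosylceramide into lamellar granules; *Ugcg* makes glucosylceramide, *Sgms1* and *Sgms2* make sphingomyelin and *Smpd1* splits sphingomyelin back to ceramide. Their estimates were higher for 3 and lower for 2 with wounding in WT (median log2 fold change 0.14), and higher for 1 and lower for 4 in cKO-labelled than in WT wounded cells (median -0.19). *Abca12* had 294 and 302 CPM in WT unwounded, 218 and 217 in WT wounded, 194 in cKO-labelled unwounded and 215 and 198 in cKO-labelled wounded keratinocytes. Both WT unwounded libraries were above the other 5, which lay close together. The log2 fold change of *Abca12* in WT was -0.43 (edgeR quasi-likelihood, standard error 0.16, unadjusted p = 0.0145, Benjamini-Hochberg adjusted p = 0.843), from 298 ± 6.17 to 217 ± 0.654 CPM (SD). Its unadjusted p was 0.0544 without WT unwounded replicate 1 and 0.0652 without WT unwounded replicate 2, with estimates of -0.44 and -0.42. Between the wounded groups the estimate was -0.05 (unadjusted p = 0.777), although both cKO-labelled libraries were below both WT ones by CPM, and it was 0.0496 without cKO-labelled wounded replicate 2. The difference in wound response between the labels was 0.52, the cKO-labelled unwounded library being the lowest of all 7.

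*Sgms2*, the sphingomyelin synthase of the plasma membrane, had 65.7 and 41.3 CPM in WT unwounded, 70.4 and 45.4 in WT wounded, 50.01 in cKO-labelled unwounded and 25.7 and 48.2 in cKO-labelled wounded keratinocytes. Cells of cKO-labelled wounded replicate 1 held the least, while replicate 2 of that group was above WT wounded replicate 2, so the groups overlapped. The log2 fold change between the wounded groups was -0.64 (edgeR quasi-likelihood, standard error 0.30, unadjusted p = 0.0470, Benjamini-Hochberg adjusted p = 1). It was -0.27 (unadjusted p = 0.437) without cKO-labelled wounded replicate 1, -0.29 (unadjusted p = 0.389) without WT wounded replicate 1 and -1.11 without cKO-labelled wounded replicate 2. Its unadjusted p was 0.0547 with DESeq2, 0.0606 with at least 10 counts in every library, 0.0508 with only the 4 libraries compared and 0.0673 without the cKO-labelled unwounded library. With edgeR it was 0.0489 under RLE normalization, 0.0410 with replicate number as a block and 0.00585 with no filter on low counts. In WT the estimate was 0.14 (unadjusted p = 0.648), and it was -0.17 without WT unwounded replicate 2 and -0.21 without WT wounded replicate 1. *Sgms1*, the synthase of the Golgi, ranged from 73.1 to 179 CPM, with replicate 1 above replicate 2 in both WT groups. *Ugcg* ranged from 21.7 to 30.7 CPM and *Smpd1* from 7.99 to 21.4 CPM, the latter highest in WT unwounded replicate 1. For the cKO label, 1 of the 5 were above the cKO-labelled unwounded library in both cKO-labelled wounded libraries (all genes tested 35%), 3 were below it in both (33.8%) and 1 lay on opposite sides.

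Ceramide is broken down by the alkaline ceramidase *Acer1* and the acid ceramidase *Asah1*, sphingosine phosphate leaves the pathway through the lyase *Sgpl1*, and *Lipk* and *Lipm* are acid lipases of differentiating keratinocytes. Wounded WT cells had a higher estimate for 3 of the 5 and a lower one for 2 (median log2 fold change 0.09). In cKO-labelled against WT wounded cells the estimate was higher for 3 and lower for 2 (median 0.22). Both cKO-labelled libraries lay above both WT wounded ones for 0 of the 5 (13.8% of all genes tested) and below both for 1 (17.2%). None of the 5 had an unadjusted p under 0.05 in either comparison, with a smallest of 0.186, that of *Asah1* between the wounded groups. *Asah1* had 44.9 CPM in cKO-labelled wounded replicate 1 and 24.7 to 30.9 CPM in the other 6 libraries, so 1 library was high. *Acer1*, which is largely restricted to epidermis, ranged from 10.6 to 25.7 CPM, with its highest value in the cKO-labelled unwounded library. *Sgpl1* ranged from 76.1 to 102 CPM and was highest in WT unwounded replicate 1. *Lipk* had 10 to 51 counts and *Lipm* 16.5 to 29.8 CPM, with no group standing apart. For the cKO label, 1 of the 5 were above the cKO-labelled unwounded library in both cKO-labelled wounded libraries (all genes tested 35%), 2 were below it in both (33.8%) and 2 lay on opposite sides.

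Spinous markers were low in WT wounded cells, while granular markers had 3 of 6 estimates higher there. *Pnpla1*, *Alox12b* and *Elovl4* were low there too, but they were named for calls in comparisons that use these cells. Of the 34 members, 13 had a higher estimate in WT wounded than in WT unwounded cells. The 6 spinous markers summed to 6379 and 7051 CPM in WT unwounded, 3726 and 5456 in WT wounded, 9576 in cKO-labelled unwounded and 6835 and 8465 in cKO-labelled wounded keratinocytes. The WT wounded libraries were the 2 lowest for this sum, and the cKO-labelled unwounded library was the highest. In WT, 6 of 6 spinous markers had a lower estimate in wounded cells (median -0.45), of which *Dsc1*, *Krt1*, *Krt10* and *Sbsn* had an unadjusted p under 0.05. Over all genes tested 1.67% were lower at that level. In cKO-labelled against WT wounded cells 6 of 6 were higher (median 0.59), of which *Krt10*, *Krt1*, *Dsg1a*, *Krtdap* and *Dsc1* had an unadjusted p under 0.05. Over all genes tested 1.96% were higher at that level. *Krt1* was the most abundant, with 2887 and 3652 CPM in WT unwounded, 1497 and 2573 in WT wounded, 3979.8 in cKO-labelled unwounded and 3039 and 3815 in cKO-labelled wounded keratinocytes. *Dsc1* and *Krtdap*, like *Pnpla1*, were low in the cKO-labelled unwounded library as well, at 111 and 64.3 CPM. Of the 6 spinous markers, 2 were above that library in both cKO-labelled wounded libraries (all genes tested 35%) and 4 were below it in both (33.8%). The smallest Benjamini-Hochberg p of the 6 from edgeR's quasi-likelihood fit was 0.459 between the wounded groups and 0.517 in WT. In bulk libraries fewer cells of a type and less RNA per cell cannot be told apart, and the part of spinous cells in the values of *Pnpla1*, *Alox12b* and *Elovl4* was not tested.

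Markers of other cell types had unadjusted calls between groups, and none passed Benjamini-Hochberg adjustment. The smallest adjusted p of these markers from edgeR's quasi-likelihood fit was 0.203, for an endothelial marker in WT. The 6 endothelial markers, led by *Flt1*, summed to 1.61 and 3.09 CPM in WT unwounded, 24.5 and 13.04 in WT wounded, 0.296 in cKO-labelled unwounded and 11.1 and 9.10 in cKO-labelled wounded keratinocytes, and *Pecam1*, *Cdh5*, *Kdr* and *Flt1* were higher in WT wounded cells and *Flt1* lower in cKO-labelled wounded cells at an unadjusted p under 0.05. The 6 mural and smooth muscle markers, led by *Acta2*, summed to 1.29 and 3.93 CPM in WT unwounded, 30.6 and 12.3 in WT wounded, 1.11 in cKO-labelled unwounded and 3.81 and 8.96 in cKO-labelled wounded keratinocytes, with *Acta2* and *Tagln* higher in WT wounded and lower in cKO-labelled wounded cells at that level. These sums were at most 30.6 CPM, beside 93.1 to 165 CPM for the granular markers. The 8 leukocyte and Langerhans markers, led by *Cd74*, summed to 5.17 to 37.6 CPM, with *Lyz2*, *Cd74* and *H2-Aa* higher in WT wounded cells at an unadjusted p under 0.05 and *Cd3e* at 0 in every library. The 5 melanocyte markers, led by *Dct*, summed to 1.07 to 9.55 CPM, with *Dct* and *Tyr* higher in WT wounded cells at that level. The 6 fibroblast markers, led by *Col3a1*, summed to 11.04 to 46.6 CPM, with *Col1a2* higher in WT wounded cells. The 7 adipocyte markers, led by *Fabp4*, summed to at most 5.64 CPM with *Fabp4* higher in WT wounded cells at that level and *Adipoq*, *Lep* and *Cfd* at 0 in every library. Of the 5 erythroid markers 4, the globin genes, were at 0 throughout.

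Sebaceous and follicular cells also make lipid. The 8 sebocyte markers summed to 179 and 246 CPM in WT unwounded, 164 and 132 in WT wounded, 164 in cKO-labelled unwounded and 104 and 162 in cKO-labelled wounded keratinocytes, *Soat1* being the most abundant and lower in WT wounded cells (log2 fold change -0.59, unadjusted p = 0.0143). The sum was highest in WT unwounded replicate 2, the library that was also highest for *Sptlc1*, *Cers4*, *Degs1*, *Fa2h*, *Elovl6*, *Scd1*, *Slc27a4*, *Cyp4f39*, *Abhd5*, *Alox12b* and *Abca12*. The same library was the lowest for *Elovl1*, *Dgat2*, *Aloxe3*, *Ugcg*, *Sgms1* and *Lipm*. The 9 hair follicle markers, led by *Krt15*, summed to 3605 to 6661 CPM, with *Lhx2*, *Krt15*, *Cd34* and *Krt79* lower in WT wounded cells at an unadjusted p under 0.05, and *Krt25* higher there, and lower in cKO-labelled wounded cells, on 176 counts of WT wounded replicate 1. Of the basal markers, *Itgb1* was higher in WT wounded cells (0.55, unadjusted p = 0.0123) and lower in cKO-labelled wounded cells (-0.56, unadjusted p = 0.0114). Of the granular markers only *Hrnr* had an unadjusted p under 0.05 in these comparisons, higher in cKO-labelled wounded cells, on 0 and 7 counts in WT and 69 and 11 in cKO-labelled libraries. The part of any of these cells in the members' values was not tested.

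Of 24 other sphingolipid genes tested, led by the saposin precursor *Psap*, 9 had a higher and 15 a lower estimate in WT wounded cells, with *Cers2* higher (0.77, unadjusted p = 0.0427) and *Sgpp1* lower (-0.41, unadjusted p = 0.0318). Between the wounded groups 16 had a higher and 8 a lower estimate, with the sphingomyelinase gene *Smpd2* higher (0.93, edgeR quasi-likelihood, unadjusted p = 0.0244). Of 23 other fatty acid genes, led by the binding protein *Fabp5*, the desaturase gene *Scd2* was higher in WT wounded cells (0.49, unadjusted p = 0.0428) and *Scd2* and *Acsl4* were lower in cKO-labelled than in WT wounded cells (-0.64 and -0.43, unadjusted p = 0.0117 and 0.0399). *Scd2* had 1187 and 1480 counts in WT unwounded, 1765 and 1870 in WT wounded, 247 in cKO-labelled unwounded and 1332 and 794 in cKO-labelled wounded keratinocytes. Its cKO-labelled unwounded library was the lowest by far, unlike that of the related *Scd1*. Of 15 cholesterol genes tested, led by *Hmgcs1*, 14 had a lower estimate in cKO-labelled than in WT wounded cells (median -0.23), of which *Lss* had an unadjusted p under 0.05 (0.0378). Of 18 transcription factors of the barrier, led by *Klf4*, *Zfp750* and *Ppard* were higher and *Cebpa* lower in WT wounded cells, and *Cebpa* and *Klf4* were higher in cKO-labelled than in WT wounded cells, at an unadjusted p under 0.05. By this rule 2 of 24 sphingolipid, 1 of 23 fatty acid, 0 of 15 cholesterol and 3 of 18 transcription factor genes were called in WT, beside 4.84% of all genes tested. Between the wounded groups they were 1 of 24, 2 of 23, 1 of 15 and 2 of 18 in the same order, beside 4.04%. The smallest Benjamini-Hochberg p in these 4 lists from edgeR's quasi-likelihood fit was 0.843 in WT and 1 between the wounded groups. The difference in wound response between labels is not given for these lists and the markers, as it rests on 1 unwounded library.

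ATAC-seq lists regions of open chromatin, 10769 for WT unwounded, 36872 for WT wounded, 29364 for cKO-labelled unwounded and 22474 for cKO-labelled wounded cells, each from 1 list with no replicate. The lists are labelled as called without a control, except that of cKO-labelled wounded cells, so its calling may differ. Within 5 kb of the gene, 15 members had a listed region in WT unwounded cells (all annotated genes 19.5%, protein-coding genes 34.8%). In WT wounded cells 32 members had one (38.8% and 62.3%), in cKO-labelled unwounded cells 32 (35.3% and 58.5%) and in cKO-labelled wounded cells 28 (29.4% and 49.2%). The members are long, with a median span of 34077 bases against 17403 for protein-coding genes, which widens the windows. All members also passed the RNA expression filter, and the share among all genes that passed it was not computed. With each list shortened to 10769 regions the counts were 15, 17, 16 and 16, beside 19.5%, 17.8%, 18.6% and 18.1% of all annotated and 34.8%, 31.5%, 32.9% and 31.8% of protein-coding genes. At a q of at most 0.01 the cKO-labelled unwounded list, with 21126 regions, had 23 members (29.00% of all annotated, 49.4% of protein-coding genes) and the cKO-labelled wounded list, with 18624, had 25 (26.3% and 44.8%). By the same q the WT unwounded list, with 8702 regions, had 13 (16.6% and 29.9%) and the WT wounded list, with 30903, had 32 (35.5% and 58.1%). *Fads2* and *Alox12b* had no listed region in any condition. Merged over the conditions, 128 regions lay at members: 69 in introns, 27 over a gene start, 14 in exons, 12 downstream and 6 upstream. Of these, 29 were listed in all 4 conditions, 42 in 3, 17 in 2 and 40 in 1, that is 22.7%, 32.8%, 13.3% and 31.2%, against 22.2%, 21.7%, 20.5% and 35.6% of all 42950 merged regions. The 42 included 41 that only the WT unwounded list, the shortest, lacked. Among start regions the highest fold enrichments were at *Lipk*, chr19:34007827-34008492 (5.13, 5.99, 6.25 and 8.40 in the order of the lists above), *Sptlc2*, chr12:87387928-87388806 (up to 7.41 in cKO-labelled wounded cells) and *Asah1*, chr8:41374402-41375252 (up to 7.22 in WT wounded cells), all 3 listed in every condition.

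**Figure D3:**
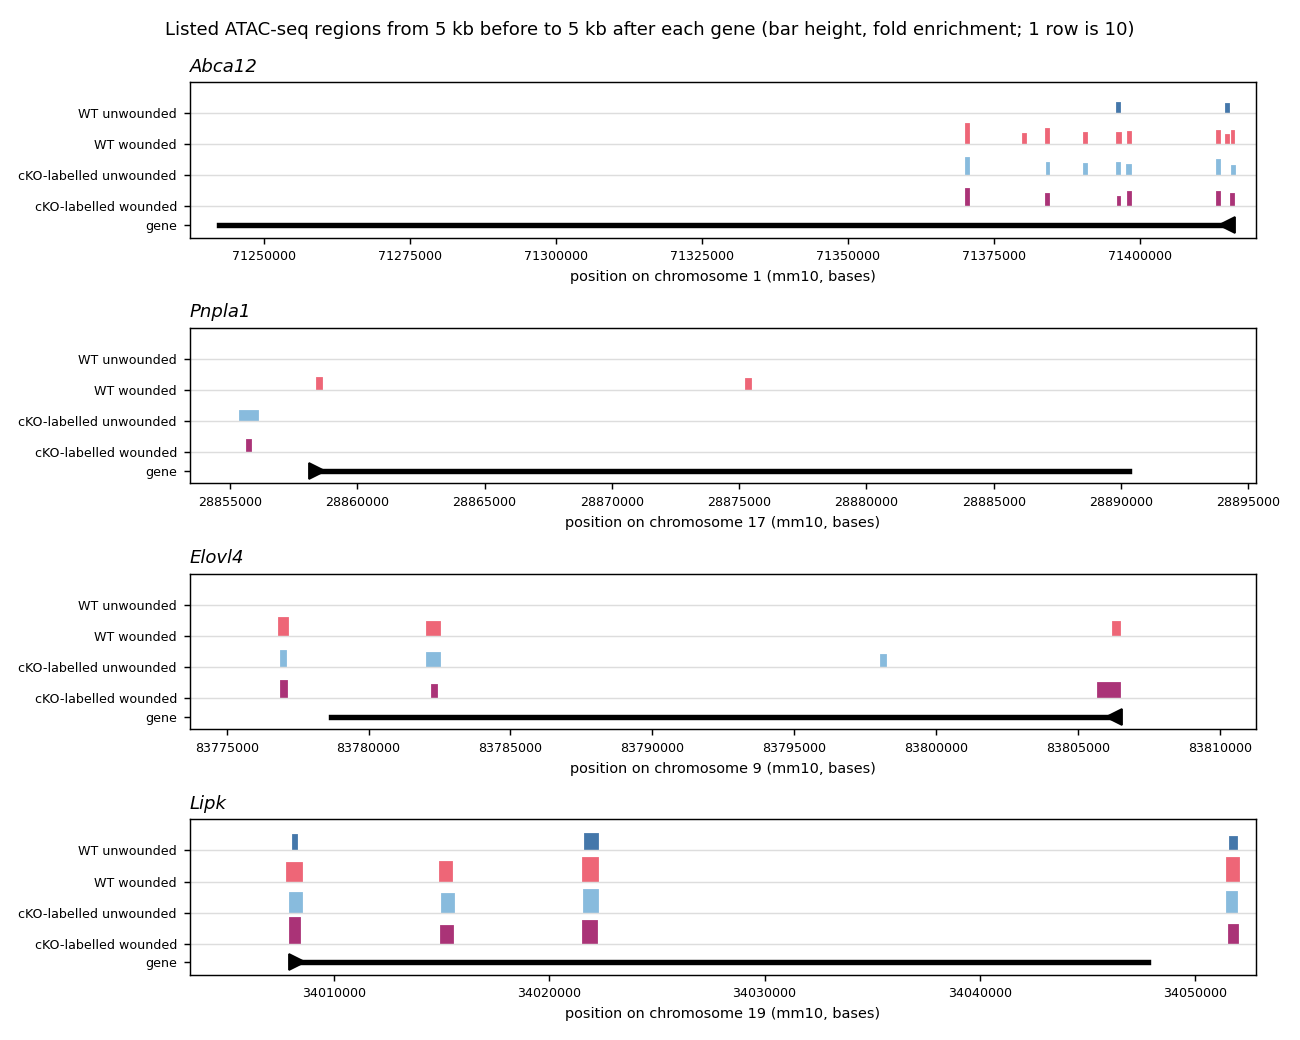
Listed ATAC-seq regions from 5 kb before to 5 kb after *Abca12*, *Pnpla1*, *Elovl4* and *Lipk* in the 4 conditions, with bar height for fold enrichment, position in bases of mm10 and the gene drawn in black with an arrowhead at its start. The lists differ in length, so a missing bar is a region not listed, not closed chromatin.

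At acylceramide and envelope genes, listed regions differed between conditions as follows (coordinates are mm10 throughout). Here and in the paragraphs below a limit on q is stated for some regions only. Others also fail a q of at most 0.01, such as that of *Cyp4f39* in cKO-labelled wounded cells alone. *Pnpla1* had no region in WT unwounded cells; chr17:28858409-28858613 and chr17:28875278-28875462, at its start and in an intron, were listed in WT wounded cells alone, with folds of 3.92 and 3.64. Upstream of *Pnpla1*, chr17:28855406-28856094 was listed in both cKO-labelled lists and in neither WT list, with folds of 3.23 and 3.91; only the latter remains at a q of at most 0.01. RNA of *Pnpla1* was low in WT wounded and cKO-labelled unwounded cells and high in the other groups, and neither pattern of regions followed that order. *Cyp4f39* had chr17:32483300-32483640 in cKO-labelled wounded cells alone and chr17:32492580-32492803 in WT wounded and cKO-labelled unwounded cells. *Abhd5* had chr9:122364473-122364657 in WT wounded cells alone and chr9:122378922-122379437 in WT wounded and cKO-labelled unwounded cells, beside a start region common to all lists. The start of *Aloxe3*, chr11:69125564-69126159, was listed in WT wounded and cKO-labelled unwounded cells, and the only region of *Sdr9c7*, in an intron at chr10:127904735-127905520, was absent from the WT unwounded list alone.

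At genes of fatty acid supply, *Elovl4* had its start region chr9:83805701-83806490 in both wounded lists and in neither unwounded list, the only member region with that pattern, with folds of 4.47 and 4.67. *Elovl4* also had chr9:83776836-83777148 and chr9:83782052-83782512 in all but the WT unwounded list and chr9:83798054-83798236 in cKO-labelled unwounded cells alone. *Scd1* had 1 region, over its start at chr19:44407528-44408467, listed in all but the cKO-labelled wounded cells. Most regions of *Elovl6* and *Elovl7* lay in introns. *Elovl6* had 12 regions, of which 5 were listed everywhere, chr3:129595696-129596389 was absent from WT unwounded alone, and chr3:129620925-129621505 and chr3:129636824-129637190 were in WT wounded and cKO-labelled unwounded cells. Listed once each for *Elovl6* were chr3:129533688-129534068 and chr3:129558211-129558731 in WT wounded, chr3:129547968-129548173 in cKO-labelled unwounded and chr3:129534115-129534344 in cKO-labelled wounded cells. *Elovl1* had chr4:118427575-118428575 and chr4:118437072-118437667 in all but WT unwounded and chr4:118428611-118428795 in WT wounded cells alone. *Elovl7* had chr13:108219567-108220118, chr13:108276614-108276847 and chr13:108288786-108289307 in all but WT unwounded and chr13:108263051-108263602 in WT wounded cells alone, beside 2 regions listed everywhere. Further starts listed in all but WT unwounded cells were those of *Dgat2* at chr7:99182631-99183241, *Fads1* at chr19:10182668-10183673 and *Slc27a4* at chr2:29802597-29802893. *Dgat2* further had chr7:99151441-99151628 and chr7:99167991-99168227 in WT wounded cells, while *Fads1* had chr19:10197076-10197258 and *Slc27a4* chr2:29817627-29817998 in cKO-labelled unwounded cells.

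At genes of the ceramide backbone, the start regions of *Sptlc2*, *Sptlc3* and *Kdsr* were listed in all 4 conditions, and those of *Cers3*, *Cers4* and *Fa2h* in all but WT unwounded cells. *Cers3* had chr7:66743279-66743847 and chr7:66790186-66790704 in those 3 lists, chr7:66756962-66757482 in WT wounded and cKO-labelled unwounded, chr7:66812813-66813084 in WT wounded alone and chr7:66755707-66756035 in cKO-labelled unwounded cells alone. *Cers4* had chr8:4492788-4493990 and chr8:4505264-4505827 and *Fa2h* chr8:111393642-111394071 in all but WT unwounded cells, and *Fa2h* had chr8:111366966-111367219 in WT wounded cells alone. *Sptlc1* had chr13:53362572-53362754 and chr13:53377166-53377527 in cKO-labelled unwounded cells alone, the latter over its start with a fold of 3.19, and chr13:53338791-53339491 and chr13:53342411-53342609 in WT wounded cells alone. Those of *Sptlc1* in cKO-labelled unwounded cells do not remain at a q of at most 0.01, while those in WT wounded cells do. Downstream of *Sptlc2*, chr12:87299829-87300469 was in WT wounded and cKO-labelled unwounded cells. *Sptlc3* had chr2:139641498-139642184 in all but WT unwounded cells and chr2:139523930-139524262 in cKO-labelled unwounded cells alone. *Kdsr* had chr1:106740877-106741147, chr1:106741635-106741883 and chr1:106752145-106752483 in WT wounded cells alone, all in introns. *Degs1* had its start chr1:182282276-182283138 in WT wounded and cKO-labelled unwounded cells and chr1:182280627-182280876 in the latter alone. *Degs2* had chr12:108675702-108676133 in all but WT unwounded, chr12:108686874-108687317 in WT wounded and cKO-labelled unwounded, chr12:108704553-108704838 in WT wounded and chr12:108674701-108675090 in cKO-labelled unwounded cells.

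At export and sphingomyelin genes, *Abca12* had its start region chr1:71414822-71415159 in both WT lists and in neither cKO-labelled list, with folds of 3.11 and 2.87; neither listing remains at a q of at most 0.01. No other member region was listed in both WT lists alone. Further *Abca12* regions, all but the last in introns, were chr1:71370241-71370738, chr1:71383990-71384440, chr1:71397858-71398512, chr1:71413150-71413709 and chr1:71415688-71416062 in all but WT unwounded cells. It also had chr1:71390486-71390854 in WT wounded and cKO-labelled unwounded and chr1:71380012-71380362 in WT wounded cells alone. *Sgms1*, the longest member, had 22 regions, of which 6 were listed everywhere. Those that only the WT unwounded list lacked were chr19:32142372-32142908, chr19:32196148-32196670, chr19:32197440-32197804, chr19:32242102-32242695, chr19:32298065-32298656, chr19:32304725-32305390, chr19:32346109-32346594, chr19:32372325-32372738 and chr19:32387895-32388909. Listed in WT wounded and cKO-labelled unwounded cells were chr19:32320403-32320754 and chr19:32389125-32389624, and chr19:32322446-32322806 was in both cKO-labelled lists and in neither WT list. *Sgms1* also had chr19:32272696-32273210 and chr19:32344658-32344864 in WT wounded and chr19:32157162-32157344 and chr19:32378862-32379472 in cKO-labelled unwounded cells alone. *Sgms2* had chr3:131334417-131335154 in all but WT unwounded and chr3:131336741-131337077 in WT wounded cells alone. *Ugcg* had its start chr4:59188852-59189714 in all but WT unwounded, chr4:59223205-59223940 in WT wounded and cKO-labelled unwounded and chr4:59199509-59200003 in WT wounded cells alone, and the only region of *Smpd1*, over its start, was listed everywhere.

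At genes of ceramide breakdown and lipases, *Acer1* had chr17:56974610-56975155 and chr17:56981969-56982400, in an intron and at its start, in all but WT unwounded cells, with folds of up to 6.82 and 6.33. *Asah1* had chr8:41364630-41364842 in cKO-labelled unwounded cells alone beside its shared start. *Sgpl1* had chr10:61150823-61151102 upstream in WT wounded cells and chr10:61103350-61103535 in an exon in cKO-labelled wounded cells, each in that list alone. *Lipk*, on few RNA counts, had 4 regions, all with folds of at least 4.35, and only chr19:34014928-34015589 was absent from a list, that of WT unwounded cells. *Lipm* had chr19:34100016-34100336, chr19:34101001-34102083 and chr19:34119091-34119414 in all but WT unwounded and chr19:34098598-34098881 in cKO-labelled unwounded cells alone.

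Grainyhead-like factors are known to bind sites with the core AACCNGTT, which was searched on both strands. Of the members, 27 are in the RefSeq promoter table, with 36 promoters of 300 bases. The letters AACCNGTT occur in 1 of the 36, at an alternative start of *Sgms1*, and in 2.09% of all promoters of that length; AACCGGTT occurs in the same promoter and in 0.146% of all. In windows of 300 bases centred on the merged regions, AACCNGTT occurs at 6 of 128 member regions (4.69%) and at 3.72% of all 42948 regions scanned, a like share. The 6 lie at *Acer1*, *Lipm*, *Sgms1*, *Sgpl1* and *Sptlc3*, *Lipm* having 2, and 1 of them, at *Sgpl1*, has AACCGGTT, as do 0.286% of all regions. The *Sgpl1* region, the exon one listed in cKO-labelled wounded cells alone, is shorter than its window, and the match lies past its end. A match is a description of sequence and not a measured site.

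The promoters of *Pnpla1*, *Elovl4* and *Abca12* are shown because their start regions were listed in some conditions and their RNA had an unadjusted p under 0.05, and that of *Sgms1* because it holds the searched letters. The sequences are the first 280 of the 300 bases searched, from RefSeq, build GRCm38.p6, 5′ to 3′ on the gene's strand, with the annotated start base in capitals and, in *Sgms1*, the match.
Pnpla1 chr17:28858161-28858440 (+): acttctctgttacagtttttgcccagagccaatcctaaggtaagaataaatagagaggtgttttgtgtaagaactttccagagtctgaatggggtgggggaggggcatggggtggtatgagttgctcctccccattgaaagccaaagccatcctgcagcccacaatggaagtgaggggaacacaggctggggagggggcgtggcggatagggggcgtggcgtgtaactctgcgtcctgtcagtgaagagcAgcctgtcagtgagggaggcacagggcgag
Elovl4 chr9:83806276-83806555 (-): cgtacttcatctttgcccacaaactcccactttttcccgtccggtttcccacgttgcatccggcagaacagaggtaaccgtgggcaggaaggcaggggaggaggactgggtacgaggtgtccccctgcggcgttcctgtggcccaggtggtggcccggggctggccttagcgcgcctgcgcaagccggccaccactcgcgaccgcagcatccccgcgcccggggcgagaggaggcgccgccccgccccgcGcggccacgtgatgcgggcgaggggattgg
Abca12 chr1:71414881-71415160 (-): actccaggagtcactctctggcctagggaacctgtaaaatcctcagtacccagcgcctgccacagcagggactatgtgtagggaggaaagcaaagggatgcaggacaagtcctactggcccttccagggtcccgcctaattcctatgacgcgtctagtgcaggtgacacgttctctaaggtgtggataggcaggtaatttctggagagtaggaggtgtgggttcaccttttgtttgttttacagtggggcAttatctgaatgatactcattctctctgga
Sgms1 chr19:32349287-32349566 (-): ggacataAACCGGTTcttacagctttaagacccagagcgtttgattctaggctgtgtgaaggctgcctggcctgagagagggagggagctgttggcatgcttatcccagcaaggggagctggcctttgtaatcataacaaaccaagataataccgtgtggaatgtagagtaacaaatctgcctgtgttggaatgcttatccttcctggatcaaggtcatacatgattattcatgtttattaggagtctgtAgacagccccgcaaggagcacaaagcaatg

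Stretches of 3 member regions with a match outside annotated exons are shown on the plus strand of GRCm38.p6, with the 8 matching letters or their reverse complement in capitals. That of *Acer1* had the highest fold among the 6, that of *Sgms1* was listed in all 4 conditions, and that of *Lipm* lies upstream of the gene in cKO-labelled unwounded cells.
Acer1 chr17:56974732-56974816 (+): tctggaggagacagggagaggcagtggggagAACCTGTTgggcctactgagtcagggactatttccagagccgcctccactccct
Sgms1 chr19:32190165-32190264 (+): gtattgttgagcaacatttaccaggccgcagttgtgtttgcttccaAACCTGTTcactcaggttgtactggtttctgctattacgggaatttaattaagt
Lipm chr19:34098673-34098772 (+): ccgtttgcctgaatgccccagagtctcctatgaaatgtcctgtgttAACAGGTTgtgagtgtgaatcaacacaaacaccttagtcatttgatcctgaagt

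Some counts can include reads of neighbouring genes. Exons of *Degs2*, *Elovl1*, *Abhd5*, *Sgms1* and *Lipm* overlap those of *Evl*, *Cdc20*, *A730085K08Rik*, *2700046G09Rik* and *Ankrd22* on the opposite strand, and those of *Pnpla1* (*Pnpla1os*), *Cers4* (*Gm36956*, *Vmn2r-ps89*), *Elovl6* (*Gm35986*) and *Acer1* (*AC073683.1*) overlap opposite-strand genes that are not in the count tables. The strandedness of the libraries is not stated, so reads of the overlapped exons cannot be told apart.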

How the data were processed

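For RNA-seq the authors deposited raw counts for each gene symbol in 7 libraries, as whole numbers. The methods name Kallisto for alignment, while the tables end with tallies in the form of a read counter, and which step made the counts is not stated. Tallies of reads off genes (without a unique alignment, 3.46% to 4.74% of a library; ambiguous, 1.34% to 1.45%) were left out. For ATAC-seq the authors deposited a ratio per region, the fold enrichment over the local background. The deposited region lists also hold a −log10 p and a −log10 q per region; 3 are labelled as called without a control library, and that of cKO-labelled wounded cells has no such label.

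Genes were kept by filterByExpr, normalized by TMM and tested, two-sided, in 1 edgeR quasi-likelihood fit of all 7 libraries in 4 groups, with Benjamini-Hochberg adjustment over 14045 genes. The wound response under the cKO label was described by a 2-fold rule on log2 CPM with a prior count of 2, as 1 library has no replicate. That rule was run on library sizes without normalization, which gave 1341 of all genes, and with TMM, which gave 1346; *Sdr9c7* was the only member in both. The TMM version was chosen after seeing the data. Regions within 5 kb of GENCODE vM21 genes were counted with bedtools.

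The members and lists were chosen with earlier results of these data known. Members named with every value have an unadjusted p under 0.05 in a test, meet the 2-fold rule, or are the 3 highest or 3 lowest per kilobase of exon with at least 10 counts in a library. Genes of other lists are named at an unadjusted p under 0.05, at most 5 in each direction, with each marker list's most abundant gene, and the 99 member regions listed in some conditions but not all are given with coordinates. *Grhl3*, the sex-linked genes and genes named for counts at or near 0 were chosen after their values were seen.

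Alternatives were RLE normalization, DESeq2, other filters and prior counts, only the libraries compared, a replicate block, leaving out each library, and other thresholds, windows and list lengths for regions. Software was R 4.3.3, edgeR 4.0.16, DESeq2 1.42.0, limma 3.58.1, Python 3.11.15, numpy 2.4.6, pandas 2.3.3, matplotlib 3.10.9, samtools 1.23.1 and bedtools 2.31.1.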

Additional observations from a re-analysis of the deposited data

How the results depend on the processing

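Under RLE, DESeq2, both filters and only the 4 libraries compared, 0 members passed an adjusted p under 0.05 in the WT and label comparisons. At an unadjusted p under 0.05 DESeq2 found 3 and 2 members there, beside 5.23% and 3.96% of all genes tested. The interaction estimate of *Pnpla1*, 1.64, ranged from 1.495 to 1.768 without each library but the cKO-labelled unwounded one. The count under the 2-fold rule, 1, was 0 with at least 10 counts in every library, which leaves out *Sdr9c7* and gives 4.13% of all genes tested. Without each library in turn the counts ranged from 1 to 7 (WT), 1 to 5 (label), 1 to 3 (interaction) and 1 to 4 (2-fold rule). A lone library left in a group is assumed to vary like the other groups. The WT estimate of *Sgms2*, 0.14, ranged from -0.21 to 0.52, with -0.17 without WT unwounded replicate 2, and the label estimate of *Abca12*, -0.05, from -0.13 to 0.0496. Over all members, 13 of 34 kept their direction without each library in WT, 14 between labels and 15 in the interaction; under the other settings 34, 32 (not *Sgpl1* and *Lipk*) and 34 did. The cause was not tested.

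With a fold enrichment of at least 4, 10 (13.1%) members (all annotated genes in brackets) had a region in WT unwounded, 27 (29.5%) in WT wounded, 19 (23.2%) in cKO-labelled unwounded and 21 (23.2%) in cKO-labelled wounded cells, since fewer regions were counted. With lists of equal length 17 (WT wounded), 16 (cKO-labelled unwounded) and 16 (cKO-labelled wounded) did, beside 17.8%, 18.6% and 18.1%, since fewer regions were counted. With AACCGGTT in place of AACCNGTT 1 member region matched, since fewer words match.

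With replicate number as a block, 4 members, with *Sgms1* added, had an unadjusted p under 0.05 in WT (all genes tested 6.74%) and 3 between labels (3.66%), and 0 passed adjustment. Deviations from the group mean correlated across genes at 0.155 between libraries numbered 1 of the WT groups and at -0.04 between those of the wounded groups, and the labels do not say that equal numbers were paired.

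Groups of 2 libraries and 1 unwounded library limit every comparison, and members with few counts, such as *Fads2*, *Aloxe3*, *Sdr9c7*, *Lipk* and *Degs2*, allow only large differences to be seen.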
